A study of Mus musculus with 6 samples.

Results

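Dopamine receptor genes and signalling genes typical of striatal projection neurons were compared between sides of the mouse entorhinal cortex (EC), left against right. The set is defined by gene symbol and has 9 genes: the dopamine receptor genes Drd1a, Drd2, Drd3 and Drd4, the G protein regulator Rgs9, the phosphatase inhibitor Ppp1r1b, the phosphodiesterase Pde10a, the synaptic membrane protein gene Tmem90a and the secreted R-spondin Rspo2. Values for 5 of the 9, of 18746 genes in all, came from the authors' deposited table, and Drd2, Drd3, Drd4 and Ppp1r1b were not analysed here. Drd1a and Tmem90a are the table's symbols for the genes now called Drd1 and Syndig1l.

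The animals were untreated wild-type C57BL/6 mice aged 6 months, with 3 arrays for the left EC and 3 for the right EC, each from a sample labelled as a biological replicate. The arrays were of the Affymetrix Mouse Gene 2.0 ST type, hybridised with total RNA. The labels do not say whether a left and a right sample shared a mouse. The deposited signals of single arrays are listed by row number, and no source used here links a row to a gene, so each named gene has a fold and a p-value for left against right but no value per array, no SD and no level. For the same reason the EC identity of the samples could not be checked against marker levels.

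Dopamine acts in the forebrain through G protein-coupled receptors of the D1 and D2 classes, which raise and lower cyclic AMP. In the striatum most neurons are GABAergic projection neurons that carry either the D1 receptor (direct pathway) or the D2 receptor together with the adenosine receptor encoded by Adora2a (indirect pathway). Cyclic AMP activates protein kinase A, whose target DARPP-32 (Ppp1r1b) then inhibits protein phosphatase 1, while PDE10A breaks cyclic nucleotides down and RGS9 shortens the signal of inhibitory G proteins. The EC lies beside the amygdala and receives dopaminergic fibres from the midbrain.

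Rgs9 alone among the 5 genes had a deposited p under 0.05, and it was greater on the right side. Among all genes a deposited p under 0.05 was found for 7.87%, made up of 3.77% greater on the left side and 4.10% on the right side, and 1 call among 5 genes cannot be read as an excess over that background. After Benjamini-Hochberg adjustment over all 18746 genes, 0 of the 5 genes and 0.00% of all genes passed at 0.05, the smallest adjusted p of any gene in the authors' deposited table being 0.509. Folds are given as left over right on the log2 scale, where a negative value means more signal on the right side.

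This direction is likely rather than stated. It rests on the title line, which puts left before right, and on the extreme differences, which lay on the right side in both sources. On the left side 0 genes and on the right side 9 genes were greater by over 2-fold in the authors' deposited table, and among array rows above the median signal the numbers were also 0 and 9. The most negative log2 values were -2.48 and -1.69 in the authors' deposited table and -2.48 and -1.68 among differences of array rows, left minus right.

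Drd1a, the D1 receptor that stimulates cyclic AMP production, was 1.06-fold greater on the right side in the authors' deposited table (log2 fold -0.09, deposited p = 0.344, adjusted p = 0.812). Of all genes 29.2% had a larger fold in either direction and 42.3% a smaller p, so its difference lay well inside the spread of the table. Drd5, the other receptor of the D1 class, was listed in 2 rows of the authors' deposited table that pointed opposite ways, 1.02-fold greater on the left side (p = 0.719 as deposited) and 1.04-fold greater on the right side (p = 0.505 as deposited).

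Rgs9 encodes a regulator of G protein signalling whose long splice form is enriched in the striatum. It was 1.15-fold greater on the right side in the authors' deposited table (log2 fold -0.20, deposited p = 0.0488, adjusted p = 0.634). A larger fold in either direction was found for 5.35% of genes and a smaller p for 7.68%. The deposited p lies just under 0.05, and 0 of the 5 genes remained when the threshold was 0.01, which 1.58% of all genes met.

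Pde10a, the phosphodiesterase abundant in striatal projection neurons, differed by 1.01-fold in the authors' deposited table (log2 fold -0.02, deposited p = 0.645, adjusted p = 0.919). Tmem90a, a relative of the AMPA receptor-associated protein SynDIG1, had a log2 fold of -0.01 in the authors' deposited table (deposited p = 0.897, adjusted p = 0.982). Of all genes 78.4% had a larger fold than Pde10a and 92.7% a larger fold than Tmem90a. Both genes therefore stood near the middle of the table, at folds close to 1.

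Rspo2, a secreted amplifier of Wnt signalling expressed in excitatory neurons of the basolateral amygdala, was the gene that leaned the other way. It was 1.07-fold greater on the left side in the authors' deposited table (log2 fold 0.09, deposited p = 0.594, adjusted p = 0.906). Its fold was about as large as that of Drd1a with the sign turned, and its p-value was higher. As a set, 1 of the 5 genes was greater on the left side and 4 on the right side, with a median log2 fold of -0.02. Over all genes the median was 0.01, and 46.0% lay on the right side.

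**Figure D1:**
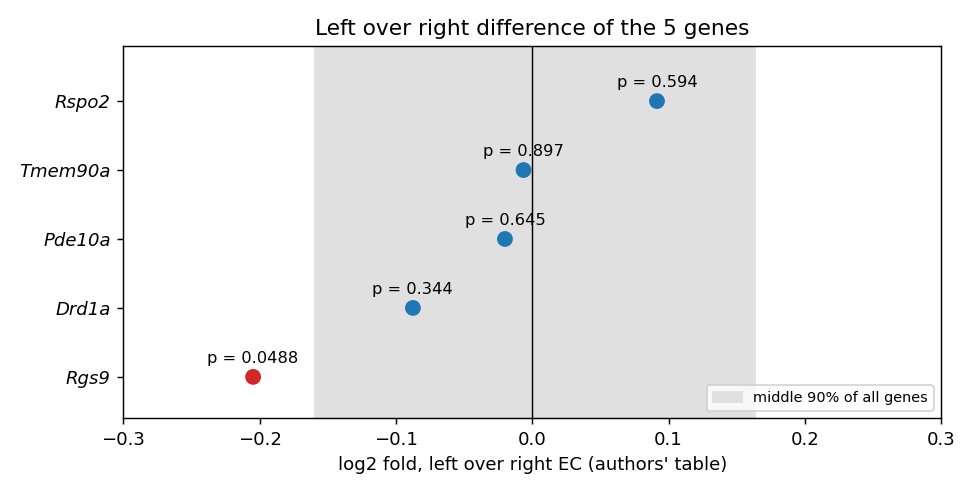
The log2 fold of left over right EC is plotted on the horizontal axis for each of the 5 genes, with its deposited p-value above the point and the middle 90% of all genes, from -0.16 to 0.16, shaded grey. Rgs9 at -0.20 (red) is the point outside the shaded range, and Drd1a, Pde10a, Tmem90a and Rspo2 (blue) lie inside it.

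The array rows show how precise a difference between 3 and 3 arrays is. The log2 medians of the arrays ran from 7.24 to 7.28. Among the 20672 rows above the median signal, the limma 95% interval of the left minus right difference extended 0.14 to either side in the median row. For 79.0% of those rows it extended less than the 0.20 by which Rgs9 differed in the authors' deposited table. Over all rows, the interval extended 0.18 to either side in the median row. The rows have no names here, so whether Rgs9 lies above the median signal is unknown, as is its own interval.

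Other genes of striatal projection neurons with a deposited p under 0.05 were, like Rgs9, greater on the right side: Adora2a, Tac1, Dlx5 and Rasd2. Of 43 listed genes 26 were analysed. Of these, 8 were greater on the left side and 18 on the right side, with a median log2 fold of -0.04 in the authors' deposited table. The 4 genes with a deposited p under 0.05 compare with 4.10% of all genes in that direction. The listed genes were chosen with earlier results of these data known, so this comparison is not an independent test. The 4.10% is also taken over genes of any signal. Among the 20672 array rows above the median signal, an unadjusted limma p under 0.05 was found for 1236 with the right greater and 572 with the left. Whether the listed genes lie above the median signal is unknown. In bulk tissue a larger share of cells that express these genes and more RNA in each cell cannot be told apart. Which cells of the samples express them was not tested.

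Among direct pathway genes, which go with the D1 receptor, all 6 measured were greater on the right side, against 46.0% of all genes. Their log2 folds ran from -0.21 to -0.01 with a median of -0.04 in the authors' deposited table. A deposited p under 0.05 was found for 1 of the 6, against 4.10% of all genes with that direction. Tac1, the precursor of substance P, was 1.13-fold greater on the right side (p = 0.0146 as listed) in the authors' deposited table, and it is also expressed in cortical interneurons. Slc35d3, which is needed for D1 receptor traffic to the cell surface, was 1.16-fold greater on the right side with a deposited p of 0.0736 in the authors' deposited table. The transcription factor gene Isl1 had a log2 fold of -0.06 and Sfxn1 of -0.01 in the authors' deposited table, both nearer to 0 than the -0.09 of Drd1a.

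Of 7 listed indirect pathway genes, which go with the D2 receptor, 3 were analysed. All 3 were greater on the right side, against 46.0% of all genes. A deposited p under 0.05 was found for 1 of the 3, against 4.10% of all genes with that direction. Adora2a was 1.98-fold greater on the right side in the authors' deposited table (log2 fold -0.98, deposited p = 0.000855, adjusted p = 0.597). It is 1 of the 6 genes of the authors' shorter table, which the authors picked on these arrays and which holds 0 of the 9 genes named at the start. That table states a p under 0.01, which 1.58% of all genes met, and the smallest fold in it is 1.51. Gpr52, an orphan receptor that raises cyclic AMP, had a log2 fold of -0.08 (p = 0.166 as deposited) and Grik3 of -0.06 (p = 0.361 as listed) in the authors' deposited table. The next lowest log2 fold among projection neuron genes reported here was that of Dlx5, -0.23, and the difference of Adora2a from the others was not tested.

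Of 17 analysed genes shared by both kinds of projection neuron, 8 were greater on the left side and 9 on the right side, and 2 on the right side had a deposited p under 0.05, against 4.10% of all genes with that direction. Dlx5, a homeobox gene of GABAergic neurons, was 1.17-fold greater on the right side in the authors' deposited table (p = 0.00389 as deposited). Rasd2, encoding the striatal GTPase Rhes, was 1.13-fold greater on the right side (p = 0.0277 as listed) in the authors' deposited table. Both folds were of the size of that of Rgs9. Lrrc10b had a log2 fold of -0.20 at a deposited p of 0.17, and Gad1, whose enzyme makes GABA, of -0.08 at 0.162, in the authors' deposited table.

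**Figure D2:**
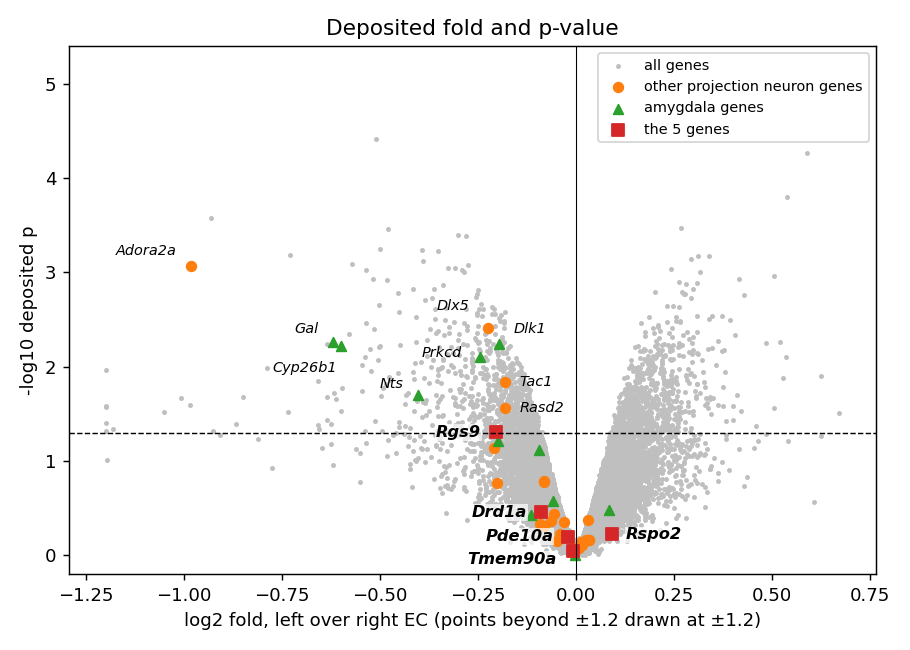
The log2 fold of left over right EC (horizontal axis) is plotted against −log10 of the deposited p (vertical axis) for all genes in grey, with the 5 genes as red squares, other projection neuron genes as orange circles and amygdala genes as green triangles. The dashed line marks a deposited p of 0.05, above which Rgs9 lies by a narrow margin, at a log2 fold near those of Rasd2 and Tac1, while Adora2a stands at -0.98.

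Of 18 measured G protein, cyclase and kinase genes, which carry the dopamine signal inside the cell, 7 were greater on the left side and 11 on the right side, with a median log2 fold of 0.00. A deposited p under 0.05 was found for 1 of the 18, no larger a share than the 7.87% of all genes. It was that of Gng7, the gamma subunit that pairs with the olfactory G protein Golf in the striatum, 1.15-fold greater on the right side in the authors' deposited table (deposited p = 0.00454, adjusted p = 0.597). Gnal, encoding the alpha subunit of Golf, was 1.07-fold greater on the right side with a deposited p of 0.182, and Gnai2 1.04-fold with a deposited p of 0.175, in the authors' deposited table. Prkar2a lay on the other side, 1.05-fold greater on the left side (p = 0.184 as deposited) in the authors' deposited table.

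Relatives and partners of RGS9 lay on the other side from Rgs9. All 6 measured were greater on the left side, with a median log2 fold of 0.12. Over all genes 46.0% were greater on the right side. A deposited p under 0.05 was found for 0 of the 6, against 7.87% of all genes. Rgs7 was 1.07-fold greater on the left side (p = 0.0645 as deposited), Rgs11 1.11-fold (p = 0.129 as deposited) and Rgs6 1.10-fold (p = 0.162 as listed) in the authors' deposited table. Rgs9bp, the membrane anchor of RGS9 in photoreceptors, was 1.12-fold greater on the left side (p = 0.102 as listed) in the authors' deposited table. Whether Rgs9 differs from them was not tested, since named genes have no values per array.

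Of 13 other phosphodiesterase genes, 7 were greater on the left side and 6 on the right side, and 1 had a deposited p under 0.05, a share near the 7.87% of all genes. The 1 gene was Pde7b, a cyclic AMP phosphodiesterase also expressed in the striatum, 1.12-fold greater on the right side in the authors' deposited table (p = 0.00903 as deposited). Pde4c had a log2 fold of 0.12 (p = 0.0678 as deposited) and Pde3a of -0.13 (p = 0.0991 as listed) in the authors' deposited table. Of 5 measured relatives of DARPP-32 and related inhibitors, 3 were greater on the left side and 0 had a deposited p under 0.05, with Ppp1r1a 1.06-fold greater on the left side (p = 0.114 as listed) in the authors' deposited table. The largest fold of that list was that of Ppp1r1c, 1.08-fold greater on the right side (p = 0.274 as listed) in the authors' deposited table. Tmem90b, the SynDIG1 gene and closest listed relative of Tmem90a, had a log2 fold of 0.01 in the authors' deposited table (p = 0.797 as deposited).

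Of the 7 measured genes of dopamine synthesis, transport and breakdown, 5 were greater on the right side, against 46.0% of all genes. A deposited p under 0.05 was found for 1 of the 7, against 7.87% of all genes, and no excess can be read from 1 call. Ddc, the decarboxylase that makes dopamine from L-DOPA, was 1.10-fold greater on the right side in the authors' deposited table (p = 0.0203 as deposited). The monoamine oxidase genes Maoa and Maob, whose enzymes break dopamine down, were each 1.08-fold greater on the right side with deposited p-values of 0.062 and 0.0943 in the authors' deposited table. Slc6a3, the dopamine transporter gene of the midbrain neurons, had a log2 fold of 0.00 in the authors' deposited table and is named after its value was seen.

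The other R-spondins and their receptors, the family of Rspo2, were split evenly, with 4 genes on each side. A deposited p under 0.05 was found for 0 of 8, against 7.87% of all genes. Rspo3 was 1.12-fold greater on the left side (p = 0.0761 as deposited) and Rspo1 1.09-fold greater on the right side (p = 0.0756 as listed) in the authors' deposited table. Lgr5, an R-spondin receptor, had the largest fold of the family, 1.15-fold greater on the left side (p = 0.154 as listed) in the authors' deposited table. The log2 fold of Rspo2, 0.09, lay between those of Rspo1 and Rspo3.

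Rspo2 is also expressed in the amygdala, and 11 other genes listed for that region were measured. Of these, 10 were greater on the right side, against 46.0% of all genes, with a list median of -0.20 on the log2 scale. A deposited p under 0.05 was found for 5, against 4.10% of all genes with that direction. The list was chosen with earlier results of these data known, so these counts are not an independent test. The galanin gene Gal was 1.54-fold greater on the right side (p = 0.00542 as deposited) and Cyp26b1, which degrades retinoic acid, 1.52-fold (p = 0.00608 as listed) in the authors' deposited table, and both stand in the authors' shorter table. Prkcd, which marks a class of central amygdala neurons and also the thalamus, was 1.18-fold greater on the right side (p = 0.0079 as deposited), and Dlk1 1.15-fold (p = 0.0057 as deposited), in the authors' deposited table. The neurotensin gene Nts, named after its value was seen, was 1.32-fold greater on the right side (p = 0.0199 as listed) in the authors' deposited table. The difference between Rspo2 and these genes was not tested.

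**Figure D3:**
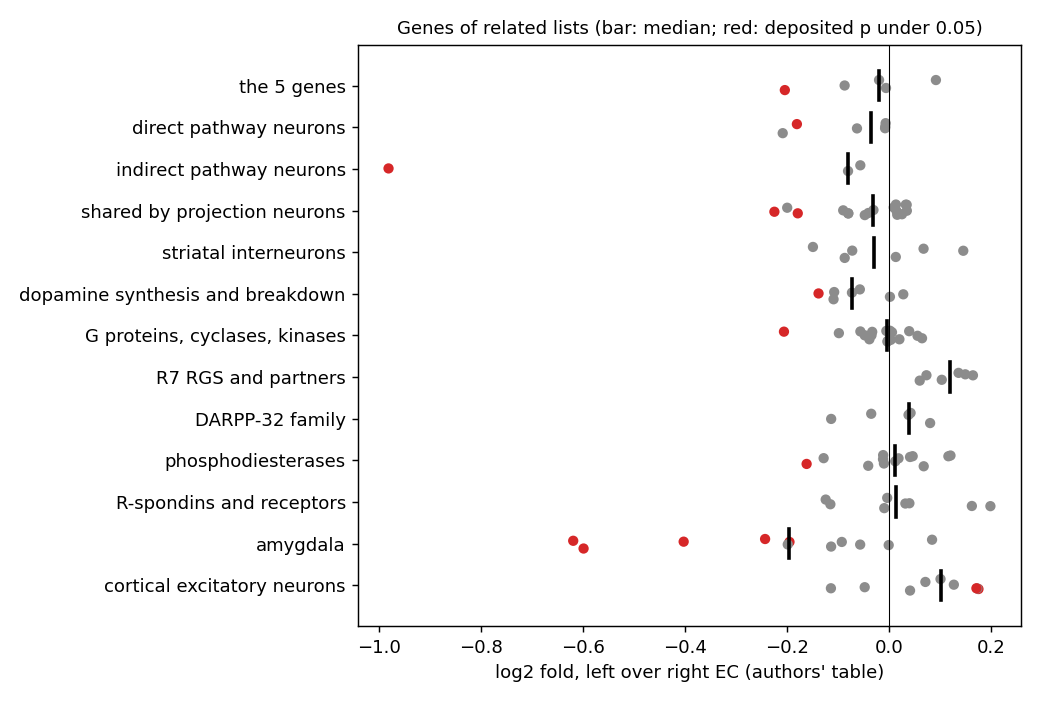
Each point is a gene's log2 fold of left over right EC (horizontal axis), by list (rows), with a black bar at the list median and red for a deposited p under 0.05. Of the lists plotted, the amygdala list has the lowest median at -0.20 and the R7 RGS list the highest at 0.12, while the median of the 5 genes is -0.02.

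Markers of other tissues and cell types were set beside these values. All 10 measured choroid plexus and ependyma markers were greater on the right side in the authors' deposited table, against 46.0% of all genes. Their log2 folds ran from -2.48 to -0.11 with a median of -1.03. A deposited p under 0.05 was found for 6, against 4.10% of all genes with that direction. These lists too were chosen with earlier results of these data known. Of 9 cortical excitatory neuron markers, 7 were greater on the left side, and the list median log2 fold was 0.10. A deposited p under 0.05 was found for 2 on the left side, against 3.77% of all genes with that direction. They were Lamp5 (1.13-fold, p = 0.0191 as listed) and Tbr1 (1.13-fold, p = 0.0346 as listed) in the authors' deposited table. The medians of the oligodendrocyte, astrocyte, microglia, and meninges and endothelium lists were -0.04, -0.07, -0.10 and -0.03, and that of striatal interneuron genes -0.03. Greater on the right side were 5 of 5 oligodendrocyte, 5 of 5 astrocyte, 4 of 5 microglia and 4 of 6 meninges and endothelium genes, against 46.0% of all genes. Of 6 striatal interneuron genes, 3 were greater on each side. A lean to the right side was therefore not particular to the direct pathway, amygdala or choroid plexus lists. In those 5 lists 1 gene, the astrocyte transporter gene Slc1a2, had a deposited p under 0.05, against 7.87% of all genes. Levels of these markers are unknown here, and their part in the values of Rgs9, Adora2a or the amygdala genes was not tested.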

How the data were processed

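Arrays of the Affymetrix Mouse Gene 2.0 ST type were run on 3 left and 3 right EC samples of total RNA, per the labels, and side and replicate number were taken from the sample titles. The authors deposited log2 signals for 41345 rows, a scale inferred from the values, and how the signals were summarized is not stated in the labels or headers. The authors also deposited a p-value and a signed fold for 20414 rows (18746 genes) from Ingenuity iReport, per the series description, with the test not stated. Signed folds, another form of ratio (minus the reciprocal below 1), were turned into log2 folds as left over right.

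The 1111 genes with several rows were given their mean log2 fold and mean signed z. The Benjamini-Hochberg adjustment over all genes was made here. Array rows were tested two-sided in R 4.3.3 by lmFit and eBayes of limma 3.58.1, with a term for side alone, after a check on simulated data. As the arrays number 3 per side, their number limits the precision, and the limma p-values rest on the spread between these samples. What spread the deposited p-values rest on is unknown, as their test is not stated. Alternatives covered the rows of a gene, thresholds, centring, normalization, filtering, variance model, replicate number as a block and leaving out each array.

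The 9 genes and all lists were chosen with earlier results of these data known. The text names all measured genes of the 9, and per list up to 4 genes by smallest p and 2 by largest fold. A listed gene is not reported here and was left out of its list. All 5 measured genes matched the GRCm38.p6 RefSeq gene table by Entrez ID. Figures were drawn with matplotlib 3.10.9.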

Additional observations from a re-analysis of the deposited data

How the results depend on the processing

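The genes of the set past a deposited p of 0.05 numbered 1. They numbered 0 at a deposited p under 0.01 and 0 after adjustment over all genes, where the threshold is stricter by construction. Each of the 5 genes had 1 row, so counting rows instead of genes could not change the count. Over all genes the count was 1475 and it was 296 at 0.01. The log2 folds of the 5 genes kept their signs when centred on the median of all genes. By limma 3023 of 41345 array rows had an unadjusted p under 0.05. After adjustment limma called 0 rows with all arrays, and 0 in each alternative fitted. Unadjusted calls numbered 1808 when rows above the median signal alone were fitted (572 with the left greater and 1236 with the right; the cause was not tested), and 2790 with the replicate number as a block. They numbered 2104 to 3829 when 1 array was left out. Without the right 2 array 1952 rows had the left greater and 1877 the right, against 1255 and 1768 with all arrays. Deviations of same-numbered arrays correlated at 0.15, 0.01 and 0.13, not above 0.1 in every pair, so the block was kept as an alternative. Whether same-numbered samples shared a mouse is not stated in the labels, and the block could not be fitted for named genes, which have no values per array. The 3 arrays per side limit what can be detected.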
